A study of Mus musculus with 4 samples.

Results

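The horizontal cell genes are 7 transcripts chosen by symbol from the 22558 gene symbols of the deposited tables: the transcription factors Lhx1, Onecut1, Onecut2 and Prox1, and the markers Calb1, Sept4 and Slc4a5. All 7 have a value in 3 of the libraries. Lhx1, Prox1 and Sept4 also have one in the day 1 DTA table, which holds 5799 symbols, and the other 4 were not analysed there. That table holds part of the genes, and its differences rest on the assumption that its FPKM were scaled over the whole library. Values come from RNA-seq of whole retinas of mice about 8 weeks old on a mixed C57BL/6 and 129 background. The DTA mice carried Msi1-CreERT2/+ and R26R-DTA/+, and the control mice were +/+; R26R-DTA/+, so the toxin allele is in both and Cre only in DTA mice. CreERT2 is a Cre recombinase that acts only when a ligand is bound, here placed under Msi1, and R26R-DTA yields diphtheria toxin fragment A, which stops protein synthesis, in cells where Cre has acted. The sources used here do not give which retinal cells recombined. There were 4 libraries, DTA day 1, control day 1, DTA day 5 and control day 5 after injury, 1 library per group, so no value has a replicate and no p-value is given.

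Horizontal cells are inhibitory interneurons of the outer retina. Their processes reach into photoreceptor terminals, where they feed back on rods and cones and feed forward on bipolar cells. In the mouse they arise from progenitors that pass through a Foxn4 and Ptf1a stage and then switch on Onecut1, Onecut2, Lhx1 and Prox1, and in the mature retina calbindin is their usual marker. Several of the 7 transcripts are not confined to them. Prox1 is also made in AII amacrine cells, some bipolar cells and lens fibres, and Calb1 in some amacrine and ganglion cells. Which cells made the RNA of Sept4 or of the other genes was not measured here. In whole retina, fewer cells of a type and less RNA per cell cannot be told apart.

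Promoter windows (250 bases before to 50 after the start site, RefSeq, build GRCm38.p6) were taken for Lhx1, Onecut1, Prox1, Sept4 and Slc4a5. All of these genes stood lower in DTA than in control at day 5. No window was used for Calb1 or for Onecut2, the gene that stood higher. The windows of the 3 genes with a lone listed start are shown. They lie at chr11:84525485-84525784 on the minus strand (Lhx1), chr9:74861671-74861970 on the plus strand (Onecut1) and chr6:83237125-83237424 on the plus strand (Slc4a5). Each is printed 5′ to 3′ on the strand of its gene, and capitals mark matches to the motifs searched.
Lhx1: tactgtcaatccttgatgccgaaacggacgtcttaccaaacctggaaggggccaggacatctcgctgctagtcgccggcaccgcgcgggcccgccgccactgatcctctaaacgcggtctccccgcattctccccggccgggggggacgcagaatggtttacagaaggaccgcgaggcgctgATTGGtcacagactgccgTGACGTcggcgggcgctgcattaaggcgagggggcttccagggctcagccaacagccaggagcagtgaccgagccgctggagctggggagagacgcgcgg
Onecut1: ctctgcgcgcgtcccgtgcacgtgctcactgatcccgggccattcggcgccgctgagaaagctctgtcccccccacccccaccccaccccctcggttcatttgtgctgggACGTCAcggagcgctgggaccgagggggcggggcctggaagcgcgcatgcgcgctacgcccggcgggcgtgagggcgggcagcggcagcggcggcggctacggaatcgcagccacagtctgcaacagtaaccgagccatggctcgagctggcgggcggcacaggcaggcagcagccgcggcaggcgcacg
Slc4a5: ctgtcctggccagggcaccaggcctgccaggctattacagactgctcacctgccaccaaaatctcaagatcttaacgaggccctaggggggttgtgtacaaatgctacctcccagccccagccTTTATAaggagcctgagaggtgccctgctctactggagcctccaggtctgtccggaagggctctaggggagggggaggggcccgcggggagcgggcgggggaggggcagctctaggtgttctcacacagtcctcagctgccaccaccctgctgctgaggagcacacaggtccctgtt

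The motifs searched on both strands were the TATA box core TATAAA, the CCAAT box, the cyclic AMP response element core TGACGT, the core ATCAAT bound by Onecut factors and the homeodomain core TAATTA. No match overlaps another in the printed windows. Lhx1 and Onecut1 both hold TGACGT, starting 50 and 140 bases before the start site, a motif in 7.51% of 32851 windows of the same length. Lhx1 also holds CCAAT (37.4% of windows) and Slc4a5 TATAAA (13.6%) 127 bases before the start. ATCAAT (7.54%) and TAATTA (5.29%) are in none of the printed windows. The GC content was 65.7% for Lhx1, 73.0% for Onecut1 and 62.7% for Slc4a5, against a median of 52.7% over all windows. These are letters in a window and not measured binding.

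Expression is given in FPKM, which counts fragments relative to transcript length and library size, and differences are taken on log2(FPKM + 1), which understates those of low genes. From its low values each library was estimated to hold 99.0 M (mega) fragments for DTA day 1, 73.3 M for control day 1, 28.9 M for DTA day 5 and 35.7 M for control day 5. The size rule called a gene where the difference reached 1 in either direction and either library reached 5 FPKM; when DTA was set against control, the controls also had to differ less than that. At day 5 the median difference of all genes of at least 5 FPKM was 0.26, so a value of 0 lies below the middle of the table; at day 1 it was 0.05 and between the controls -0.06. The controls also differed in sex-linked transcripts: Xist, made from the inactive X, had 60.4 FPKM in DTA day 5, 53.7 in control day 5 and 0.0060 in control day 1, and the Y-linked Ddx3y at 0.275, 0.175 and 15.6 FPKM in the same order. The part of sex in the difference between the controls, and in those taken against control day 1, was not tested. Adjoining tissue differed between the controls as well. All 19 lens markers were lower in control day 5 than in control day 1 (median -2.52, summed level 373 against 2577 FPKM), as were 12 of 13 pigment epithelium markers (median -1.09, summed level 49.6 against 186 FPKM).

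All 7 horizontal cell genes were detected in each library that lists them, none of them at 0. By level per length, the order in both controls was Sept4, Prox1, Calb1, Slc4a5, Lhx1, Onecut1 and Onecut2. In DTA day 5 the first 4 kept that order, and Lhx1 came last, below Onecut1 and Onecut2. The authors give bounds for each FPKM, which cover counting and assignment within a library and not the spread between mice. From 10.3% (control day 5) to 23.8% (DTA day 1) of lines have an upper bound below the FPKM itself. Among these are Sept4 in all libraries, Prox1 in both day 1 libraries and Calb1 in control day 1. In DTA day 5 the bounds of Lhx1 (0.558 to 0.957 FPKM) and Onecut2 (0.737 to 0.917 FPKM) overlapped, so their order is within counting error. In control day 5 those of Lhx1 (1.57 to 2.27 FPKM) lay above those of Onecut2 (0.499 to 0.633 FPKM).

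At day 5, 6 of the 7 genes stood lower in DTA than in control, with a median difference of -0.42. Among 14469 genes of at least 0.5 FPKM in one library, a floor that all 7 pass, 27.1% were below 0. A difference of -0.5 or less was seen for Lhx1, Calb1 and Sept4, 3 of 7, and for 4.53% of those genes, and a difference of 0.5 or more for none of the 7 and for 25.9% of those genes. None of the 7 met the full size rule, which 1.77% of 9883 genes met as lower and 6.75% as higher (175 and 667 genes, against 255 and 424 under median ratio scaling and 224 and 491 when scaled to the sum without rod and abundant genes); 3 of the 7 (Prox1, Calb1 and Sept4) reached its floor.

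Lhx1 encodes a LIM homeodomain factor that sets the layer in which horizontal cells settle (chromosome 11, 84332881 to 84339036, minus strand, mm9). It stood at 1.47 FPKM in DTA day 1 and 2.01 in control day 1, and at 0.762 FPKM in DTA day 5 and 1.92 in control day 5. The DTA library was the lower on both days, and the controls were close to each other, with a log2 difference of -0.04. At day 5 the level was 2.52-fold lower in DTA, the largest ratio among the 7 genes, with a log2(FPKM + 1) difference of -0.73. At day 1 it was 1.37-fold lower, a difference of -0.28. The bounds of DTA and control were apart on both days. With a length of 4039 bases for the longest annotated transcript, the DTA day 5 value rests on about 88.9 fragments and the control day 5 value on about 277. Its level kept it out of the size rule: the day 5 difference was -1.23 with a pseudocount of 0.1 and -0.26 with a pseudocount of 5, and with a pseudocount of 0.1 and a floor of 1 FPKM it was called, in a setting added after the data were seen in which 259 of 13422 genes were called lower and 1414 higher.

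Onecut1 and Onecut2 encode cut homeodomain factors that act together in forming horizontal cells, and at day 5 they stood on opposite sides of their control. Onecut1 (chromosome 9, 74709728 to 74737454, plus strand, mm9) stood at 1.23 FPKM in DTA day 5, 1.67 in control day 5 and 1.67 in control day 1. The day 5 difference was -0.26, and the bounds of DTA (0.859 to 1.58 FPKM) and control (1.26 to 2.07 FPKM) overlapped. The values rest on about 64.3 fragments in DTA day 5 and 108 in control day 5. Other annotated genes share its span, among them Gm16551 on the same strand. Some of these fragments may therefore not be its own, and how many was not measured. Onecut2 stood at 0.826 FPKM in DTA day 5, 0.566 in control day 5 and 0.719 in control day 1. It was the only one of the 7 above its day 5 control, 45.8% higher, with bounds apart and a difference of 0.22. On this scale the Onecut2 difference is close to the all-gene median of 0.26, which is taken over genes of at least 5 FPKM. With a pseudocount of 0.1 it was 0.47, against a median of 0.28. With the median of 0.26 subtracted, the other 6 ran from -1.10 (Sept4) to -0.52 (Onecut1), with Lhx1 at -0.99. The scale shrinks the differences of Lhx1, Onecut1, Onecut2 and Slc4a5, which lie under that floor at day 5, more than those behind the median.

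Prox1 encodes a homeodomain factor that drives progenitors out of the cell cycle towards horizontal cell fate (chromosome 1, 191945658 to 191994559, minus strand, mm9). It stood at 35.5 FPKM in DTA day 1 and 34.4 in control day 1, and at 24.2 FPKM in DTA day 5 and 30.7 in control day 5. Both day 1 libraries lay close together and DTA day 5 was the lowest of the 4. The difference was 0.04 at day 1, just under the all-gene median of 0.05, a sign that turned to -0.02 when scaled to the sum without rod and abundant genes and to -0.0050 under median ratio scaling, and -0.33 at day 5. The lens also makes Prox1, and lens markers differed far more at day 5: their median difference was -2.50, with 8 of 19 called lower, a summed level of 51.5 FPKM in DTA against 373 in control, and Crygf listed at 0 in DTA. At day 1 the 8 lens markers measured had a median of 1.19. The part of the lens in the Prox1 values was not tested. The lincRNA Gm17566 lies on the opposite strand within the Prox1 span, and whether counting used the strand is not stated in the labels.

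Calb1, calbindin, is a calcium buffer of horizontal cell bodies and processes (chromosome 4, 15808411 to 15833856, plus strand, mm9). It stood at 11.04 FPKM in DTA day 5, 16.5 in control day 5 and 25.4 in control day 1. Each library stood below the next by a similar ratio, and the difference between the controls (-0.59) was larger than that between DTA and control at day 5 (-0.54). Against control day 1 the DTA day 5 difference was -1.13, past the size rule, which 243 of 10023 genes then met as lower and 585 as higher.

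Sept4 encodes septin 4, a GTP-binding protein of the septin cytoskeleton, and was the most abundant of the 7 (chromosome 11, 87394633 to 87404041, plus strand, mm9). It stood at 60.5 FPKM in DTA day 1 and 76.2 in control day 1, and at 36.9 FPKM in DTA day 5 and 66.5 in control day 5. DTA lay below control on both days, and the 2 DTA values lay below both controls. The difference was -0.33 at day 1 and -0.83 at day 5, the largest of the 7 on this scale, while the controls differed by -0.20. At day 5 the level was 44.5% lower in DTA. Under median ratio scaling the day 5 difference was -1.07, and the gene was then called lower. The gene has 19 annotated transcripts, and in all 4 libraries the authors' upper bound lies below the FPKM itself, so its bounds were not used.

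Slc4a5 encodes an electrogenic sodium bicarbonate cotransporter (chromosome 6, 83187369 to 83254939, plus strand, mm9). It stood at 2.86 FPKM in DTA day 5, 4.16 in control day 5 and 8.55 in control day 1. The control libraries differed by -0.89, more than DTA and control at day 5 (-0.42). The pigment epithelium markers moved the same way in both comparisons, with medians of -1.09 between the controls and -0.31 at day 5, where 10 of 13 were below 0, none was called and the summed level was 24.6 FPKM in DTA against 49.6 in control. Their part in the Slc4a5 and Calb1 values was not tested.

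**Figure D1:**
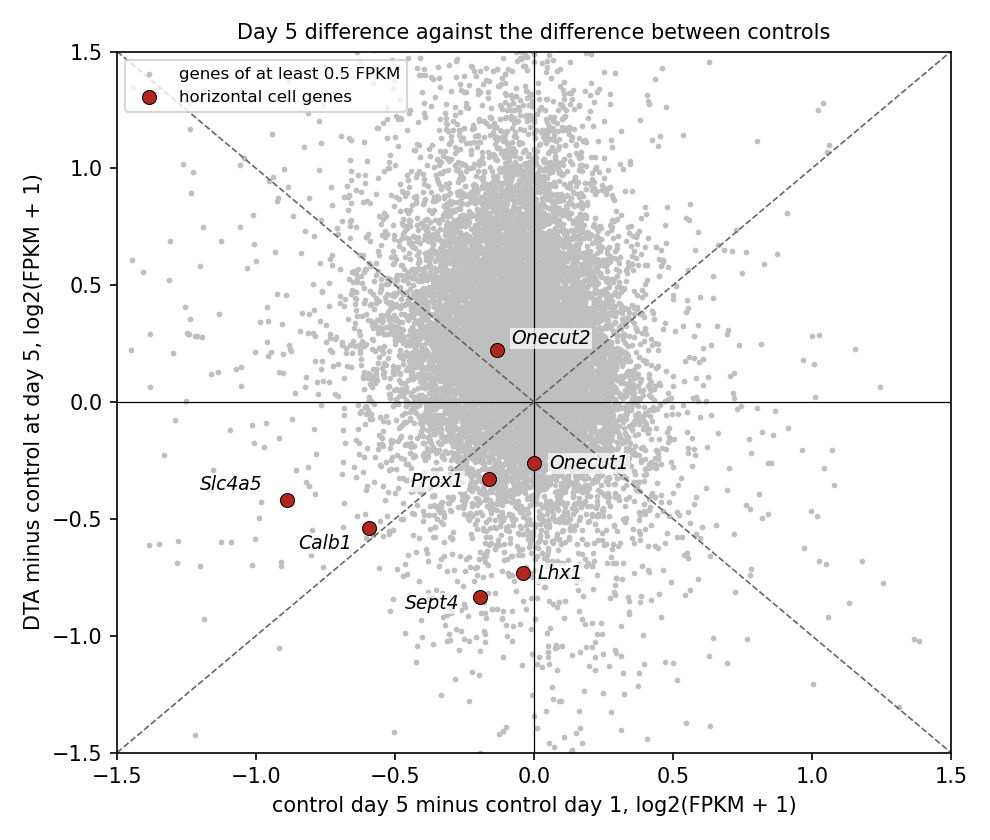
Difference of DTA and control at day 5 (vertical) against the difference of control day 5 and control day 1 (horizontal), both in log2(FPKM + 1), with the 7 genes in red and all genes of at least 0.5 FPKM in grey, cropped at 1.5. On the dashed diagonals both differences have the same size. Calb1 and Slc4a5 lie to the side where the controls differ more, and Lhx1 (-0.73) and Sept4 (-0.83) lie low, where the controls differ little (-0.04 and -0.20).

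Between the controls 6 of 7 genes were below 0 (median -0.16), as were 60.2% of 13897 genes of at least 0.5 FPKM. Calb1 and Slc4a5 were at -0.5 or less, as were 5.12% of those genes, and none of the 7 met the size rule, against 1.72% of 9321 genes lower and 0.858% higher. At day 5, Calb1 and Slc4a5 were the pair for which the difference from the same-day control was smaller than that between controls, and for the other 5 it was larger.

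At day 1, Lhx1 and Sept4 were below 0 and Prox1 above, 2 of 3 against 42.2% of 3823 genes below 0. None of the 3 was at -0.5 or less (2.22% of genes) or met the size rule (0.61% of 2623 genes lower, 2.06% higher). In all 3 the day 5 difference was lower than the day 1 difference. The change between days was -0.45 for Lhx1, -0.37 for Prox1 and -0.50 for Sept4 on the log2 scale. It was 0.22 for the median gene measured in all libraries with at least 5 FPKM in one, a floor that Lhx1 does not reach. Without the controls, DTA day 5 minus DTA day 1 was -0.49 for Lhx1, -0.53 for Prox1 and -0.70 for Sept4. The median over the same genes of at least 5 FPKM was 0.14.

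The authors' bounds were compared for the genes whose FPKM lies within them. Of 6 such horizontal cell genes, 4 (Lhx1, Prox1, Calb1 and Slc4a5) had DTA bounds wholly below those of control, as did 10.1% of 11771 genes, and 1 (Onecut2) had them above, as did 48.1%. At day 1 Lhx1 alone of the 3 could be read this way, with its bounds below those of control, as for 14.7% of 2396 genes.

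Other genes listed for horizontal cell function, not all of them particular to these cells, were mixed at day 5. In a list of 14 junction, transmitter and cytoskeletal genes, 10 were below 0, with a median of -0.16, and none was called. The lowest were Megf10 (-0.68), a receptor for the even spacing of horizontal and starburst amacrine cells in the mouse, and Gja10 (-0.65), the connexin 57 that couples horizontal cells. Gja10 stood at 0.643 FPKM in DTA day 5, 1.57 in control day 5 and 1.90 in control day 1, a 2.44-fold lower level in DTA at day 5, near the ratio of Lhx1. Megf10 stood at 2.20 FPKM in DTA day 5, 4.14 in control day 5 and 4.81 in control day 1. Both had controls that were close together and a DTA value under each of them. Pvalb, parvalbumin, was at 0.41 and Calb2, calretinin, at -0.33. The enzymes and carrier of GABA, which amacrine cells also make, lay nearer to 0: Gad1 at -0.29, Slc32a1 at -0.17 and Gad2 at -0.16.

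Of 7 measured factors that specify horizontal cells earlier, 3 (Onecut3, Rorb and Six3) were below 0 at day 5, and none was called. The median was 0.03, which is the value of Foxn4 itself. Foxn4 and Ptf1a, active in progenitors, were at 0.023 and 0.120 FPKM in DTA and listed at 0 in control. Their differences could therefore not fall below 0, and the median says little about the expressed factors. Pax6, a factor of many retinal cell types, stood at 75.3 FPKM in DTA and 73.5 in control. The largest day 5 differences among those of at least 1 FPKM were those of Onecut3 (-0.22), Rorb (-0.18), Neurod4 (0.14) and Pax6 (0.03). Rorb, a nuclear receptor needed for horizontal cells in the mouse, was called lower between the controls, at 15.6 FPKM in control day 5 and 32.5 in control day 1, a difference of -1.01.

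Within their gene families, Lhx1 and Sept4 stood below every other member at day 5. The 11 other LIM homeobox genes ran from -0.48 (Lhx2) to 0.37 (Isl1), with a median of 0.00. The 12 other septins ran from -0.24 (Sept5) to 0.42 (Sept7), with a median of -0.01. Almost silent genes set these medians: Lmx1a, at 0.0015 FPKM in DTA and 0.0014 in control, and Sept12 and Sept14. Lhx5, Lhx6, Lhx8 and Lmx1b were almost silent too, and on this scale such genes can hardly differ. Sept2 and Sept10 stood at 0.38 and 0.35, and Lhx4 and Isl2 at 0.21 and 0.16. Slc4a5 did not stand at the end of its family: Slc4a7, an electroneutral sodium bicarbonate cotransporter, was lower, at 15.3 FPKM in DTA and 26.7 in control, a difference of -0.77. Of the remaining transporters Slc4a2 was at 0.31, Slc4a8 at -0.14 and Slc4a4 at 0.12. The median of the 9 was 0.00, the value of Slc4a1, which was not detected in DTA or control at day 5. No member of the 3 families was called on either day or between the controls. Many could not be, since they lay under the floor of 5 FPKM in every library that lists them. These were Lhx5, Lhx6, Lhx8, Lhx9, Isl2, Lmx1a and Lmx1b, Sept1, Sept10, Sept12 and Sept14, and Slc4a1, Slc4a4, Slc4a9 and Slc4a11. At day 1 only 4 of the 11 LIM homeobox genes, 4 of the 12 septins and 3 of the 9 transporters had a DTA value. The rest could not be called there, nor could Sept10, Lhx9, Lmx1a and Slc4a1, which lay under the floor of 5 FPKM.

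Lists of other inner retinal neurons lay nearer to 0 at day 5 than the horizontal cell genes. The median was -0.29 for 12 amacrine markers, 11 of them below 0, -0.19 for 13 ganglion cell markers, 12 of them below 0, and -0.06 for 14 bipolar markers, 8 of them below 0. None of these markers was called, but some lay under the floor of 5 FPKM at day 5 and could not be. These were Chat, Th, Slc17a8, Barhl2 and Neurod6 among the amacrine markers. Among the ganglion cell markers they were Pou4f2, Pou4f3, Isl2, Ebf1 and Opn4. The amacrine list overlaps the function list in Gad1 and Slc32a1, and the ganglion cell list overlaps it in Nefh and Nefl. The LIM homeobox list shares Isl1 with the bipolar list and Isl2 with the ganglion cell list. Rod markers, by contrast, had a median of -1.55, with 8 of 12 called lower. Whether the horizontal cell median differs from that of the amacrine markers was not tested, since 1 library stands behind each group.

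**Figure D2:**
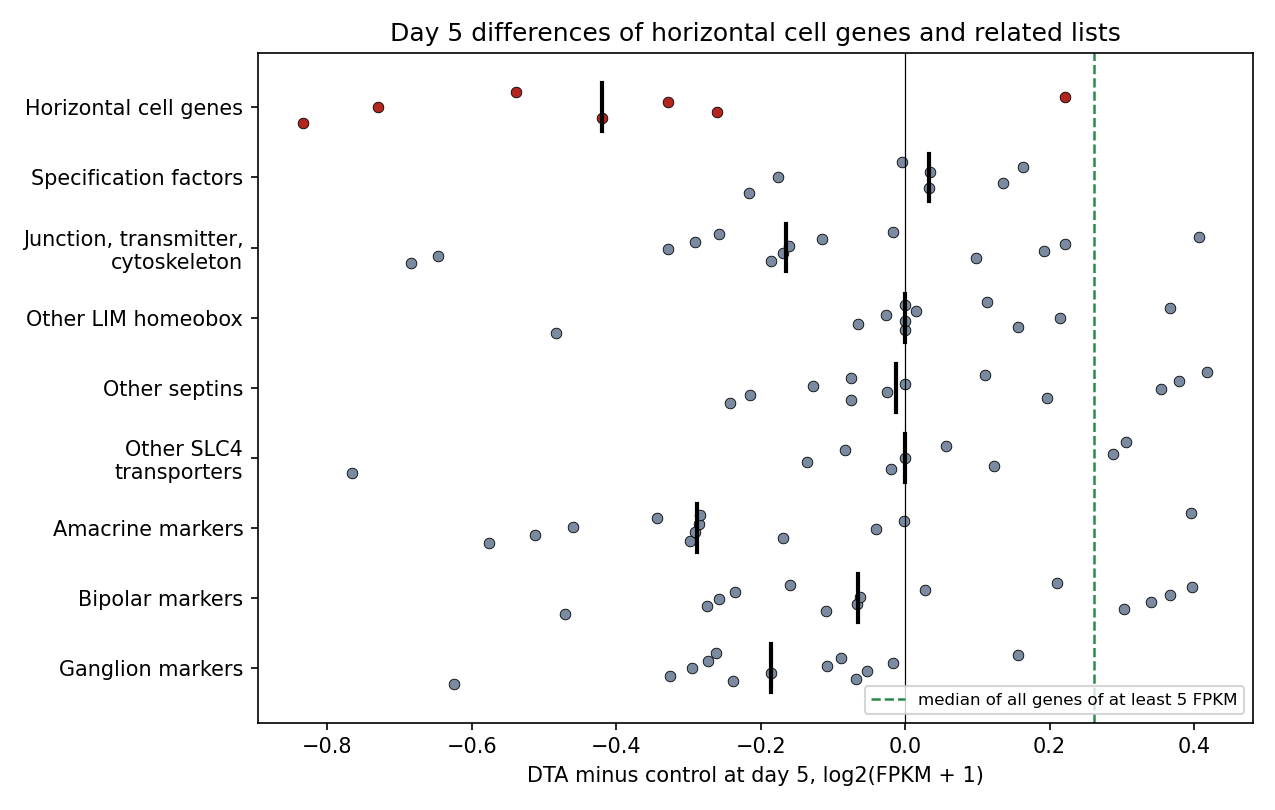
Difference of DTA and control at day 5 in log2(FPKM + 1) for each gene of 9 lists, 1 point per gene, spread vertically for legibility, with a black bar at the list's median and a dashed line at the median of all genes (0.26). The horizontal cell genes have their median at -0.42, left of the other lists, and the amacrine markers come next at -0.29.

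Genes with the most similar profiles were sought for the 4 horizontal cell genes of at least 5 FPKM, by Euclidean distance of log2(FPKM + 1) centred over the libraries. Over 4 libraries and 2777 genes the nearest to Prox1 were Kcnma1 (distance 0.017), a calcium-activated potassium channel, and Prkca (0.064), a kinase of rod bipolar cells, and the nearest to Sept4 were 1110038D17Rik (0.054) and Abca8a (0.103). Over 3 libraries and 10095 genes Tpt1 (0.022) and Luzp2 (0.035) were nearest to Calb1, and Mir124a-2 (0.081) and 2810002D19Rik (0.093) to Slc4a5. Sept4 had 1 gene within a distance of 0.1, and Prox1 had 8, Calb1 10 and Slc4a5 4. With so few libraries such likeness is a description only.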

How the data were processed

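RNA-seq of 4 whole-retina libraries was used as deposited. Per the labels' protocols, Sepazol was used for extraction and an Illumina mRNA-seq kit for the libraries. The authors deposited FPKM per gene with lower and upper bounds and a status; Cufflinks 2.1.1, CASAVA 1.8.2, bcl2fastq 1.8.4 and the build mm9 are named, without roles, per the submitters' processing notes. The aligner, the annotation and the number of mice per library are each not given in the sources used here. FPKM scales to the whole library, so very abundant transcripts move all others.

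Lines of status FAIL or HIDATA were read as missing, and FPKM of symbols with several loci were summed. All lines of the 7 genes have status OK. Locus starts had 1 added. Depth was read off the commonest small product of FPKM and length, taken as 1 fragment, among genes with a lone annotated transcript longer than 1500 bases, and fragments per gene from that depth and the longest annotated transcript; they are approximate. Differences were taken with Python 3.11.15, numpy 2.4.6 and pandas 2.3.3, and figures drawn with matplotlib 3.10.9; calling was tested on simulated data.

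Named were the 7 genes and the 2 nearest profiles per gene of at least 5 FPKM. From each related list came called members and up to 4 others. These 4 had the largest day 5 difference among those of at least 1 FPKM. Foxn4, Ptf1a, Gad1, Gad2, Slc32a1, the markers named beside results and the genes named for their low level were added after their values were seen. The genes, lists and rules were chosen with earlier results of these data known.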

Additional observations from a re-analysis of the deposited data

Results flagged for a closer look

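Prox1 stood above its control at day 1 and below it at day 5, so that the day 5 difference minus the day 1 difference was -0.373 on the log2(FPKM + 1) scale. With 1 library per group the opposite directions were not tested, and the day 1 difference of 0.04 is small.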

How the results depend on the processing

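No paired analysis was possible because each group has 1 library. At day 5, 6 horizontal cell genes kept their sign below 0 and Onecut2 its sign above 0 in all 7 alternatives that give a difference. Only the scalings and the changes of control could have turned a sign. A change of pseudocount cannot, and leaving out low data lines left the values of the 7 genes unchanged. No gene of the 7 met the size rule at day 5 except Sept4 with a size of 0.5 (1 gene) and under median ratio scaling (1 gene), Lhx1 with a pseudocount of 0.1 and a floor of 1 FPKM (1 gene, added after the data were seen), and Calb1, Sept4 and Slc4a5 against control day 1 (3 genes). Over all genes 255 of 9811 were lower and 424 higher under median ratio scaling, 259 of 13422 and 1414 with the lower pseudocount and floor, and 243 of 10023 and 585 against control day 1. The day 5 median of -0.42 was -0.61 under median ratio scaling, -0.77 against control day 1 and -0.75 against the mean of both controls, and nearer to 0, at -0.26, with a pseudocount of 5. At day 1 the median of -0.28 was -0.12 with a pseudocount of 5 and -0.13 against control day 5, where Sept4 also stood at -0.13, and no setting called a gene. Between the controls Slc4a5 met the rule with a pseudocount of 0.1, alone (1 gene, where 174 of 9321 genes were lower and 91 higher) or with a floor of 1 FPKM (1 gene, where 285 of 12947 were lower and 132 higher), and Calb1 and Slc4a5 with a size of 0.5 (2 genes). The cause of these moves was not tested, other than that a smaller size admits more genes. Over all genes at day 5, 175 were lower and 667 higher, against 453 and 2623 with a size of 0.5 and 122 and 350 with a pseudocount of 5. At day 1, 16 were lower and 54 higher, against 38 and 140 with a size of 0.5, 34 and 70 with no requirement on the controls, 10 and 85 against control day 5, 11 and 35 with a pseudocount of 5, and 7 and 59 against the mean of both controls. Between the controls, 160 were lower and 80 higher, against 514 and 165 with a size of 0.5. Depth limits Lhx1, Onecut1 and Onecut2 most.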
